A study of Mus musculus with 130 samples.

Results

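The 8 Sox transcription factor genes described here belong to 3 groups of that family: Sox1, Sox2 and Sox3 (SoxB1), Sox14 and Sox21 (SoxB2), and Sox4, Sox11 and Sox12 (SoxC). They were chosen by name, with no measured value in the rule, and were matched by gene symbol to 8 of the 52550 genes of a read count table, all 8 with counts in 25 of 25 libraries. The libraries came from FVB/NJ mouse embryos that carried the FUCCI reporter, a pair of fluorescent proteins that rise and fall with the cell cycle, taken at embryonic day 10.5, 11.5 or 13.5. The embryos were minced and their cells were sorted into 4 fractions, which the labels name BR (G0), DR (G1), YE (G1-S) and GR (S-G2-M), and an unsorted portion was kept. Preparations WT1 and WT2 were taken at E10.5, WT3 at E11.5 and preparations 5 and 8 at E13.5, so that each fraction had 5 libraries. All groups share the strain and the reporter, and no other genotype or treatment was compared. It is not stated if single embryos or pools made up a preparation, and so p-values measure the spread between these preparations, which may be technical. The labelled tissue is embryo, with no cell type selected. In such mixed samples fewer cells of a type and less RNA per cell cannot be told apart.

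Sox proteins bind DNA through a high-mobility-group domain and usually act with partner factors. In the developing nervous system the SoxB1 factors hold cells in the dividing progenitor state, often with POU-domain partners, and Sox21 and Sox14 of the SoxB2 group are known as repressors that oppose them. SoxC factors rise as progenitors leave the cell cycle and activate genes of the young neuron, such as those for tubulin and doublecortin. SoxC genes also act in mesenchyme, and Sox2 marks foregut epithelium and other progenitors, so that in a whole embryo none of the 8 belongs to neural cells alone.

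Each of the 8 genes is a single exon block in GENCODE M21 on GRCm38, the mm10 assembly that the submitters' processing notes name. Sox2 lies at chr3:34650405-34652461 on the plus strand, within an intron of the noncoding gene Sox2ot. Sox4 lies at chr13:28948919-28953713 and Sox11 at chr12:27334264-27342574, both on the minus strand. The others are Sox1 on chromosome 8, Sox3 on chromosome X, Sox14 on chromosome 9, Sox21 on chromosome 14 and Sox12 on chromosome 2. Exons of opposite-strand genes cover 54.6% of Sox4, where the gene is Gm26735, and 18.8% of Sox21, where it is Gm4675. The sources used here do not say whether counting used the strand, and without it the reads of such pairs cannot be told apart.

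Sequences upstream of the start site were read for 7 of the 8 genes, Sox3 not among them, as the 250 bases before the RefSeq start on GRCm38.p6. Those of Sox2, the SoxB1 gene with the highest level, and of Sox4 and Sox11, the SoxC pair that moved together between fractions, are shown 5′ to 3′ with CCAAT, read as ATTGG on the other strand, and the Sox word ACAAAG in capitals.
Sox2, chr3:34649745-34649994, plus strand: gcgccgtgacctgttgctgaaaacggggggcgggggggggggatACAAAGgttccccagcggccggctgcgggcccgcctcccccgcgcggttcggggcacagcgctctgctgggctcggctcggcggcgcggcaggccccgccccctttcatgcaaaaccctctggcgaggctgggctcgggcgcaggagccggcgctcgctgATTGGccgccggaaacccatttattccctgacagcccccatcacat
Sox4, chr13:28953700-28953949, minus strand: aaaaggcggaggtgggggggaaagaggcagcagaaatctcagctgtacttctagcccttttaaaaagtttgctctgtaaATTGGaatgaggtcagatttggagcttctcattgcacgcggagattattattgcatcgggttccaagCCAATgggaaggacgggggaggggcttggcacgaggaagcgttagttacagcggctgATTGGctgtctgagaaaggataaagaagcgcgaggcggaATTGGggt
Sox11, chr12:27342719-27342968, minus strand: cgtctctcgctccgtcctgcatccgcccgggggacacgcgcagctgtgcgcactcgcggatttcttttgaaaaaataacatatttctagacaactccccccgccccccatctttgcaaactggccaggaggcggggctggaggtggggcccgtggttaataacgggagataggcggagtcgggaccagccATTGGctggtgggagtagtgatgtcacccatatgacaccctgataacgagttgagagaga
The word CCAAT on either strand was in the window of 6 of the 7 genes, all but Sox21, and in 33.8% of all 32851 promoters of the same table. Sox4 held 4 copies. A Sox word, ACAAAG or ACAATG on either strand, was in the window of Sox2 and in no other member's, against 25.2% of all promoters. An octamer, ATGCAAAT, the word of POU factors, was in that of Sox12, against 1.6%. The E-box words CAGCTG or CATCTG were in those of Sox4 and Sox11, against 25.5%. None of the 7 held TATAAA, present in 12.4% of all promoters, or an E2F word (TTTCCCGC, TTTCGCGC, TTTGGCGC or TTTGCCGC), present in 1.86%. No matches in these 7 windows overlapped. These are matches of letters in a window and not sites.

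Library totals ran from 14692256 to 58492064 counts, with a median of 22852555. Mitochondrial genes took 0.372% to 0.701% of the counts of preparations titled WT, and 1.66% to 3.42% of those of preparations 5 and 8. E13.5 is held by preparations 5 and 8 and E10.5 by WT-titled ones, so that embryonic day and title series cannot be told apart, and every E13.5 against E10.5 value below carries that limit. Levels are given as counts-per-million (CPM) scaled with TMM factors, and values in a row of 5 follow the order WT1, WT2, WT3, 5 and 8. Summed over 8 neuron markers (Nefl, Nefm, Stmn2, Tubb3, Mapt, Snap25, Syt1 and Elavl4), the level was 2450.5 to 5671.4 CPM in G0, 335.1 to 1168.1 in G1, 281.5 to 471.8 in G1-S and 120.1 to 276.9 in S-G2-M, and none of the 8 was at 3 counts or fewer throughout a fraction. The sum over 8 neural progenitor markers (Pax6, Hes5, Nes, Fabp7, Msi1, Notch1, Prom1 and Lhx2) was 604.0 to 811.9 CPM in G0, 807.4 to 1672.2 in G1, 1112.1 to 1403.3 in G1-S and 1307.3 to 1633.6 in S-G2-M.

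Among the sorted fractions, SoxB1 genes had their highest level in S-G2-M in every preparation, and their lowest in G0 in every preparation but for Sox1 in preparation 8, which was lowest in G1. Sox2, which keeps neural and other progenitors undifferentiated, was at 17, 21.5, 28.7, 33.5 and 32.3 CPM in G0. In S-G2-M it was at 117.5, 121.5, 101.7, 98.6 and 113.2 CPM. The ranges of the G0 and S-G2-M libraries did not overlap, and the fitted difference was a log2 change of 2.03 ± 0.25 (SE, n = 5 preparations), or 4.08-fold, with an adjusted p of 3.35e-07. Here and below, adjusted p is from edgeR's quasi-likelihood test with Benjamini-Hochberg adjustment over the 23506 genes tested, a gene passes under 0.05, and n is 5 preparations for each comparison of fractions. Sox1, an early marker of the neural plate, was at 11.3, 12.3, 12.2, 22.7 and 25.2 CPM in G0 and at 39.6, 37.4, 39.3, 62.1 and 75.8 CPM in S-G2-M. All 5 S-G2-M libraries exceeded all G0 libraries, with a log2 change of 1.62 ± 0.17 (adjusted p = 2.92e-08). Sox3, the X-linked member of the group, was at 3.84, 3.27, 3.62, 3.56 and 2.96 CPM in G0 and at 14.6, 17.1, 17.3, 18.7 and 23.2 CPM in S-G2-M, a log2 change of 2.41 ± 0.24 (adjusted p = 8.13e-09). That was 5.31-fold, and its G0 level, on 57 to 113 counts in a library, varied less between preparations than that of Sox1 or Sox2.

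Between those ends the 3 genes took different courses. Sox2 was at 82.4, 82.7, 63.5, 35.2 and 38.1 CPM in G1, so that the WT-titled preparations stood well above their G0 level and preparations 5 and 8 close to it. The fit over all 5 gave 1.12 ± 0.25 for G1 against G0 (adjusted p = 0.00104), while within preparations 5 and 8 the change was 0.14 (adjusted p = 0.316). Sox3 followed Sox2, with 10.7, 9.9, 9.21, 4.83 and 4.54 CPM in G1. Its change from G0 was 1.15 ± 0.23 over all preparations (adjusted p = 0.000407) and 0.51 within preparations 5 and 8 (adjusted p = 0.0525). Sox1 was at 23.7, 17.4, 15.4, 24.8 and 21.5 CPM in G1 and did not pass against G0 (0.37 ± 0.17, adjusted p = 0.0997). It passed within the WT-titled preparations (0.67, adjusted p = 0.00841) and without preparation 8 (0.53, adjusted p = 0.0438). From G1-S to S-G2-M all 3 rose, Sox1 by 1.44 ± 0.17 (adjusted p = 9.4e-06), Sox3 by 1.2 ± 0.23 (adjusted p = 0.000935) and Sox2 by 0.83 ± 0.24 (adjusted p = 0.0197). The rise of Sox2 missed the threshold without preparation WT2 (0.75, adjusted p = 0.102). The G1-S levels were 72.8, 54.8, 53.9, 56.4 and 70.4 CPM for Sox2 and 14.7, 14.6, 12.7, 23.9 and 28.3 CPM for Sox1, each below the S-G2-M library of its own preparation. Sox3 was at 9.05, 8.27, 5.73, 7.47 and 9.29 CPM in G1-S. The neural progenitor marker sum given above was also lower in G0 than in S-G2-M in every preparation, and its part in the SoxB1 differences was not tested.

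**Figure D1:**
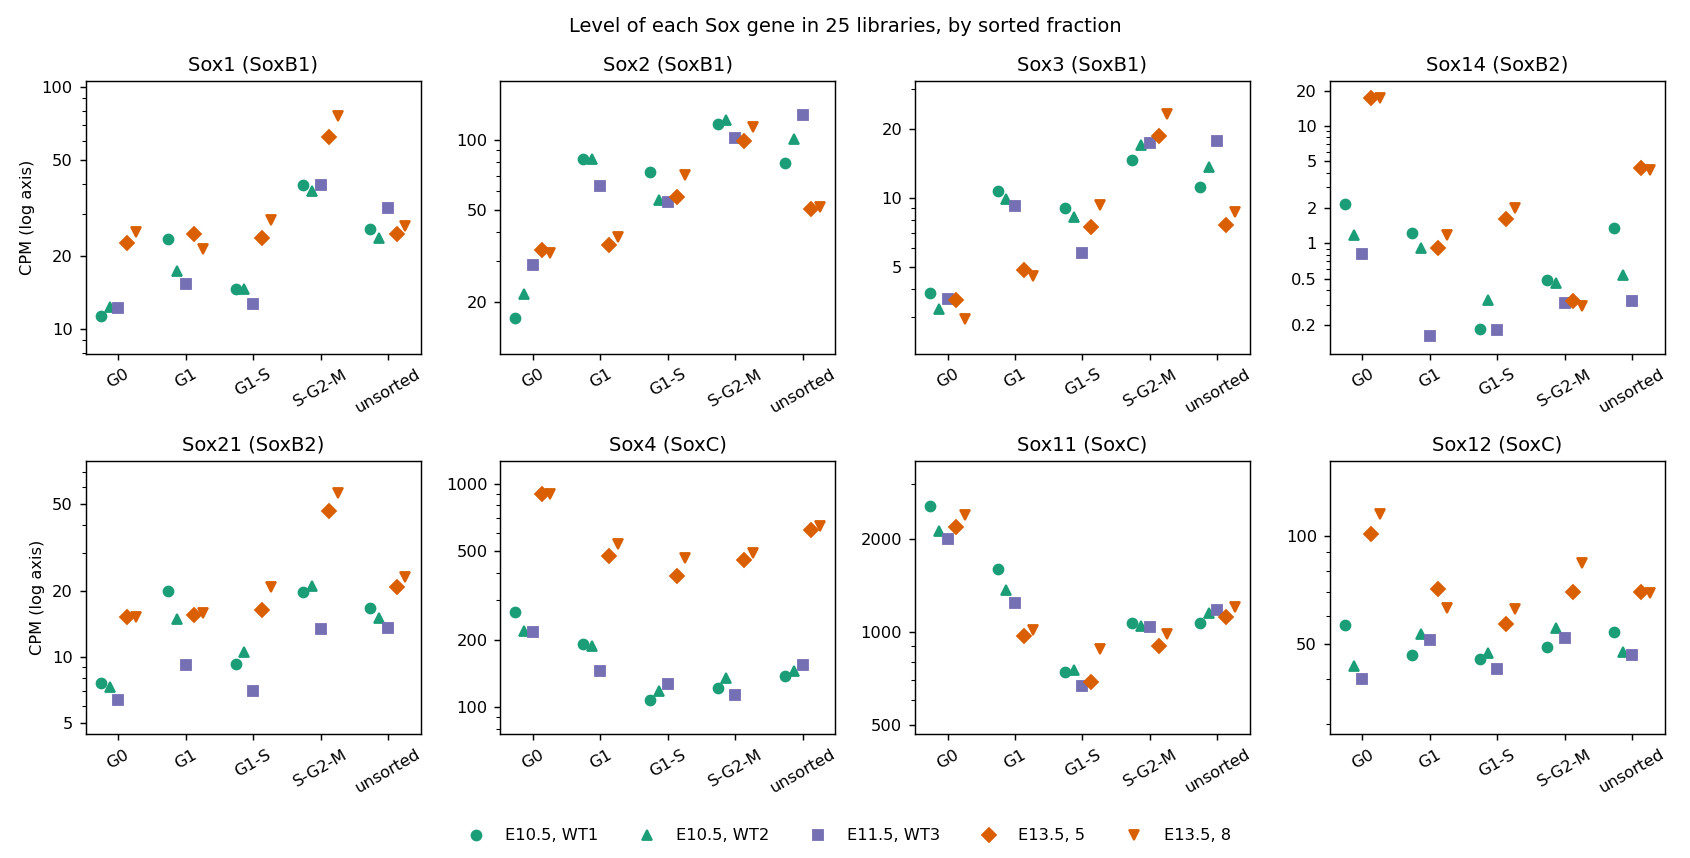
Level of each of the 8 Sox genes in 25 libraries, as CPM on a log axis, by sorted fraction, with 1 point per preparation coloured by embryonic day. Among sorted fractions Sox1, Sox2 and Sox3 are highest in S-G2-M, Sox11 is highest in G0, and Sox4 is higher at E13.5 than at E10.5 and E11.5 in every fraction.

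Within SoxB2 the 2 genes went opposite ways. Sox21, a repressor of SoxB1 target genes, had the pattern of Sox1: 7.58, 7.33, 6.35, 15.2 and 15.2 CPM in G0 and 19.9, 21.1, 13.4, 46.6 and 56.0 CPM in S-G2-M. Each preparation rose, although the WT3 library in S-G2-M (13.4 CPM) was below the 2 E13.5 libraries in G0. The log2 change was 1.53 ± 0.2 (adjusted p = 5.11e-07), and from G1-S to S-G2-M it was 1.21 ± 0.19 (adjusted p = 0.000203). For G1 against G0, where it was at 20, 14.9, 9.24, 15.5 and 15.9 CPM in G1, Sox21 passed over all preparations (0.66 ± 0.2, adjusted p = 0.0101) but not without WT1 (0.43, adjusted p = 0.108) or without WT2 (0.58, adjusted p = 0.0814), and within preparations 5 and 8 the change was 0.03 (adjusted p = 0.867).

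Sox14, known from small sets of postmitotic interneurons, had the fewest counts of the 8 genes in total, with 3 to 351 in a library. In G0 it was at 2.18, 1.18, 0.805, 17.3 and 17.3 CPM and in S-G2-M at 0.485, 0.463, 0.31, 0.321 and 0.29 CPM. G0 and S-G2-M did not overlap, and the log2 change from G0 was -3.18 ± 0.58 (adjusted p = 5.24e-05). It was also lower in G1 than in G0 in 5 of 5 preparations, by -2.37 ± 0.55 (adjusted p = 0.00146), but within the WT-titled preparations, where its counts were 64 or fewer, the change of -1.0 did not pass (adjusted p = 0.144). The direction of its step from G1 to G1-S was not the same in all preparations. Log2 ratios of CPM were -2.71 in WT1, -1.47 in WT2, 0.15 in WT3, 0.81 in 5 and 0.79 in 8. The fit over all preparations gave -0.52 ± 0.59 (adjusted p = 0.585) and the one within preparations 5 and 8 gave 0.75 (adjusted p = 0.0307). Its levels were 1.22, 0.907, 0.163, 0.918 and 1.17 CPM in G1 and 0.186, 0.327, 0.181, 1.61 and 2.02 CPM in G1-S.

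Of the SoxC genes, Sox11 and Sox4 stood highest in G0 among the sorted fractions of every preparation. Sox11, which promotes neuronal differentiation and neurite growth, was the most highly counted of the 8, at 2546.0, 2119.6, 1998.9, 2183.2 and 2392.8 CPM in G0. Its level in G1 was 1599.9, 1361.0, 1236.6, 969.4 and 1009.9 CPM, and in G1-S it was 739.9, 753.0, 665.8, 686.8 and 876.8 CPM. Those 3 ranges did not overlap. It fell by 0.87 ± 0.11 on the log2 scale from G0 to G1 (adjusted p = 1.19e-06) and by 0.72 ± 0.11 from G1 to G1-S (adjusted p = 3.7e-05). In S-G2-M, at 1068.9, 1046.1, 1036.9, 898.5 and 983.8 CPM, it stood above G1-S in 5 of 5 preparations, a rise of 0.43 ± 0.11 (adjusted p = 0.00758), which was 0.28 within preparations 5 and 8 (adjusted p = 0.0756). From G0 to S-G2-M it fell by 1.16 ± 0.11 (adjusted p = 3.88e-09), or 2.23-fold. The neuron marker sum was also lower in S-G2-M than in G0 in every preparation, and its part in the change of Sox11 was not tested. From G1 to G1-S the sum fell in WT1 (1168.1 to 317.3 CPM), WT2 (981.4 to 333.6 CPM) and WT3 (745.1 to 281.5 CPM). Over that step it went from 335.1 to 341.5 CPM in preparation 5 and from 358.9 to 471.8 CPM in preparation 8. From G1-S to S-G2-M, where Sox11 rose, the sum was lower in all 5 preparations.

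Sox4, which acts with Sox11 and is also widely present in mesenchyme, was at 266.1, 218.7, 216.7, 898.2 and 901.6 CPM in G0. In S-G2-M it was at 121.0, 134.9, 112.6, 453.9 and 490.9 CPM. Each preparation fell, although the 2 title series sat at separate levels, so that the lowest E13.5 library in S-G2-M exceeded the highest WT-titled one in G0. The log2 change was -0.93 ± 0.11 (adjusted p = 7.45e-08), and within preparations the ratio of CPM ran from -1.14 in WT1 to -0.7 in WT2. Sox4 fell by 0.58 ± 0.1 from G0 to G1 (adjusted p = 0.000126) and by 0.45 ± 0.11 from G1 to G1-S (adjusted p = 0.00395). From G1-S to S-G2-M its value was 0.1 ± 0.1 (adjusted p = 0.604). Summed over 8 mesenchyme markers, the level was 543.8, 1381.4, 1228.1, 6209.6 and 5425.0 CPM in G0 and 2715.0, 2814.3, 2892.2, 5114.2 and 4765.6 CPM in S-G2-M. That sum moved opposite to Sox4 in the WT-titled preparations and with it in preparations 5 and 8. In the fit over all preparations 5 of those 8 markers were higher in S-G2-M and none lower, where 54.2% of all genes passed. The median change of the 8 was 1.66.

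Sox12, the third SoxC gene, was at 56.6, 43.5, 40.1, 101.6 and 115.4 CPM in G0 and at 49.0, 55.4, 51.9, 69.8 and 83.9 CPM in S-G2-M. Its fractions overlapped, and the change of -0.13 ± 0.13 did not pass (adjusted p = 0.406). Preparations 5 and 8 taken alone gave -0.55 (adjusted p = 0.000201), and the WT-titled preparations gave 0.18. For G1 against G0 the values were -0.71 within preparations 5 and 8 (adjusted p = 2.88e-05) and 0.13 within the WT-titled ones. The difference between E13.5 and E10.5 in these changes, tested directly as an interaction, did not pass. It was -0.56 ± 0.2 for S-G2-M against G0 (adjusted p = 0.095) and -0.69 ± 0.2 for G1 against G0 (adjusted p = 0.064). In G1-S it was at 45.4, 47.1, 42.6, 56.9 and 62.7 CPM, the lowest sorted fraction of preparations WT1, 5 and 8.

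Counted over the 8 genes, S-G2-M against G0 gave 4 higher and 3 lower, where 54.2% of all genes tested passed in either direction, and the members' median change was 0.7 beside -0.01 for all genes. In G1 against G0, 3 were higher and 3 lower, where 36.3% of all genes passed. From G1 to G1-S none was higher and 2 were lower, Sox11 and Sox4, where 18.9% passed. The split of those calls over all genes depended on scaling, with 62% of calls higher under TMM factors and 51.9% under RLE factors. From G1-S to S-G2-M, 5 were higher and none lower, where 17.4% passed, and the members' median change was 0.63 beside 0.0 for all genes. S-G2-M against G1 gave 4 higher and 2 lower (29.5% of all genes passed), and G1-S against G0 gave 2 higher and 4 lower (52.6% passed). The share of the 8 that passed was above the background in each of these 6 comparisons, and nearest to it from G1 to G1-S. Sox11 and Sox4 lay lower in S-G2-M than in G1 with the smallest changes of those that passed: Sox11 (-0.29, adjusted p = 0.0473) missed the threshold without WT1 (-0.2, adjusted p = 0.2), without WT2 (-0.29, adjusted p = 0.108) and without WT3 (-0.28, adjusted p = 0.1), and Sox4 (-0.35, adjusted p = 0.0131) without WT1 (-0.27, adjusted p = 0.0801). In G1-S against G0, Sox12 (-0.4, adjusted p = 0.0124) missed it without preparation 5 (-0.28, adjusted p = 0.143) and without preparation 8 (-0.3, adjusted p = 0.094).

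**Figure D2:**
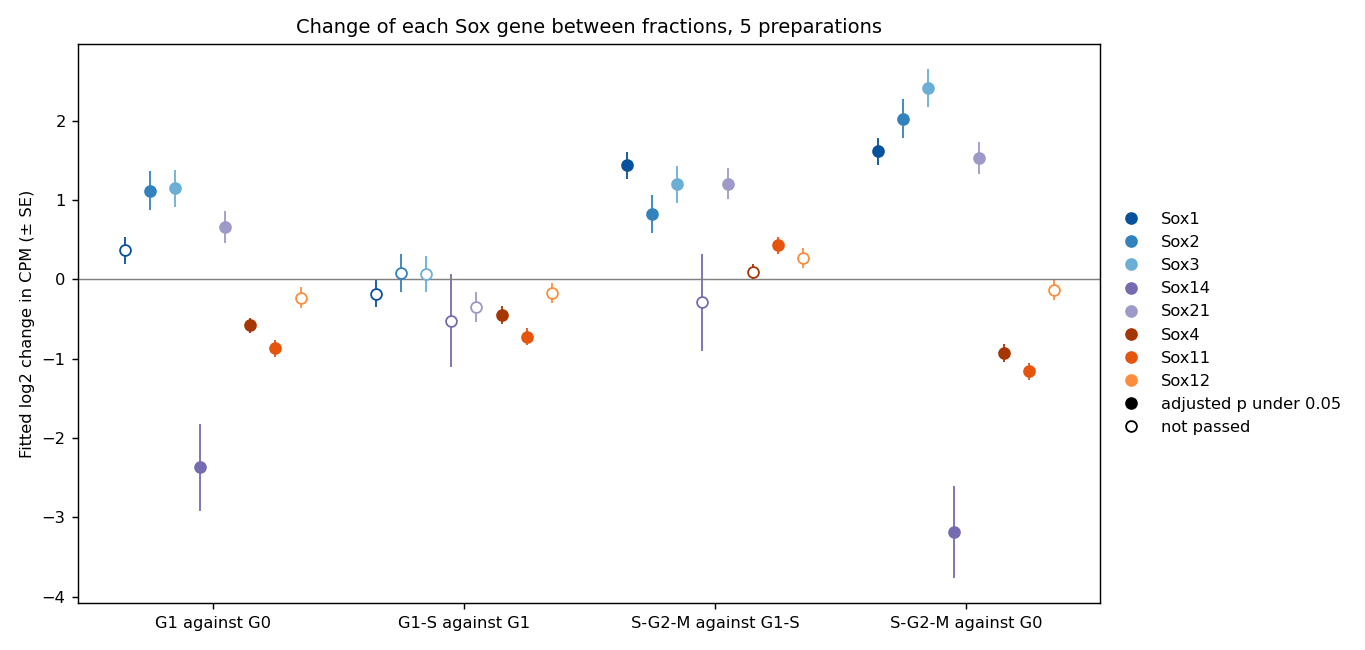
Fitted log2 change of each Sox gene in 4 comparisons of fractions over 5 preparations, with standard error bars; filled points passed an adjusted p of 0.05 and open points did not. SoxB1 genes and Sox21 lie above 0 and Sox4, Sox11 and Sox14 below 0 in S-G2-M against G0, and Sox1 rises by 1.44 from G1-S to S-G2-M.

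To compare levels between genes, CPM were divided by exon length in kb. On that scale Sox11 was the highest of the 8 in all 25 libraries, with 240.5 to 306.3 CPM per kb in G0. Sox2 led SoxB1, at 66.3% to 82.9% of the summed SoxB1 level per kb over the 25 libraries, ahead of Sox1 and Sox3. The ratio of summed SoxC to summed SoxB1 per kb was 30, 21.3, 16.2, 20.8 and 22.4 in G0. It was 4.84, 4.42, 4.95, 9.43 and 9.85 in G1, 2.84, 3.74, 3.67, 4.88 and 4.86 in G1-S, and 2.28, 2.22, 2.42, 3.13 and 2.92 in S-G2-M. G0 did not overlap any other fraction, and S-G2-M was the lowest sorted fraction in every preparation. Even there SoxC exceeded SoxB1, by 2.22-fold at the least. Within SoxC the share of Sox4 was 14.7% to 22.8% in the 15 libraries titled WT, whatever the fraction, beside 37.5% to 46.5% in the 10 of preparations 5 and 8. That of Sox11 was 69.0% to 82.2% in the former and 47.0% to 57.4% in the latter.

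**Figure D3:**
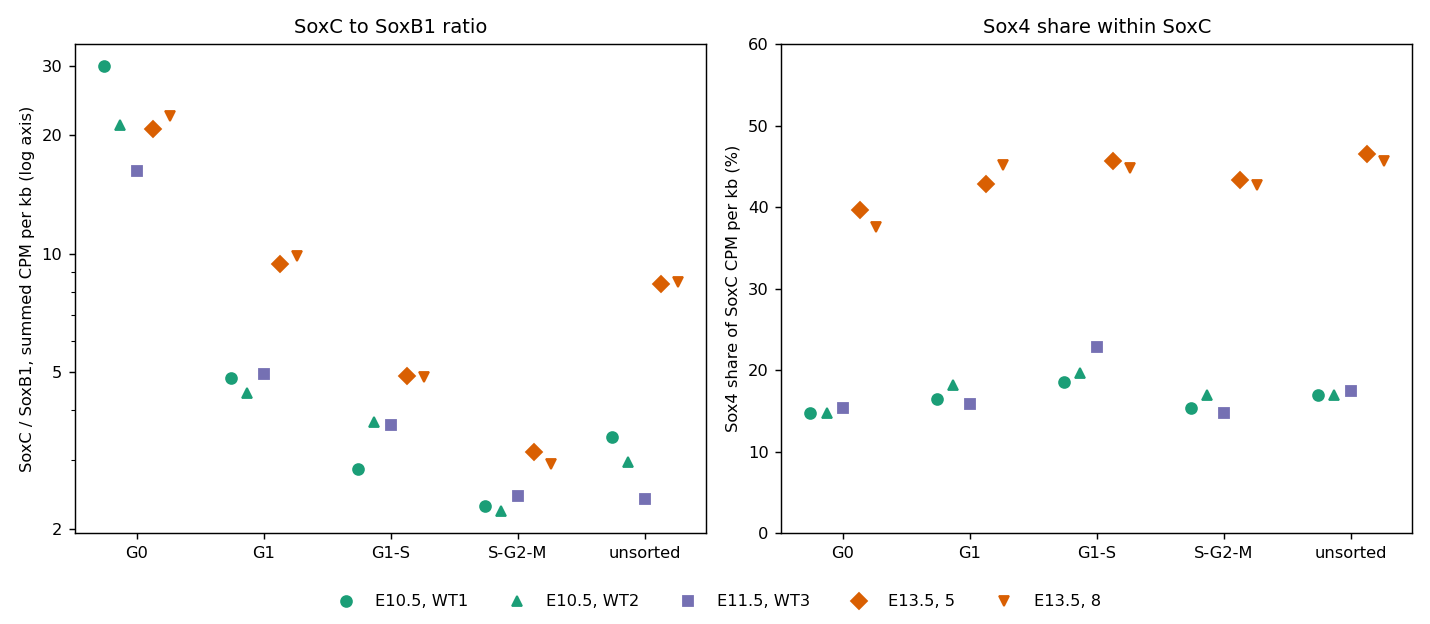
Left, ratio of summed SoxC to summed SoxB1 CPM per kb on a log axis, and right, share of Sox4 in the SoxC level per kb in percent, for each preparation by fraction. The ratio runs from 16.2 to 30 in G0 to 2.22 to 3.13 in S-G2-M, and the share of Sox4 separates preparations 5 and 8 from the WT-titled ones in all fractions.

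E13.5 was compared with E10.5 within each fraction, with 2 preparations each. The spread was pooled over the fractions in a single fit, which took libraries of the same preparation as independent although they deviated together. The adjusted p for the days, and for the interactions below, therefore rests on fewer independent units than libraries. Sox4 was higher at E13.5 in all 5 fractions, by a log2 change of 1.89 ± 0.13 in G0 (adjusted p = 5.3e-09), 1.42 ± 0.12 in G1 (adjusted p = 1.67e-07), 1.91 ± 0.13 in G1-S (adjusted p = 8.12e-09), 1.88 ± 0.13 in S-G2-M (adjusted p = 8.23e-09) and 2.16 ± 0.13 in unsorted cells (adjusted p = 1.46e-09). The E11.5 preparation, titled WT, had 216.7 CPM of Sox4 in G0 and 154.3 in unsorted cells, beside 218.7 to 266.1 and 137.5 to 145.6 CPM at E10.5. Genes with opposite-strand overlap were also read as a class, with Sox4 among them. Among genes whose log2 CPM averaged 3 or more, the 56 whose exons were covered by 50% or more had a median change between the same groups of 1.31 in G0, 0.83 in G1, 1.08 in G1-S, 0.9 in S-G2-M and 1.13 in unsorted cells. The 7754 such genes with no opposite-strand exon had medians of 0.02, -0.11, 0.01, -0.08 and 0.04. The lower quartiles of the 56 were 0.08, -0.31, -0.05, -0.02 and 0.04 in the same order. They were below 0 in G1, G1-S and S-G2-M, where not all of the 56 rose. Of the 56, between 19.6% and 30.4% exceeded the change of Sox4 in a given fraction, beside 1.13% to 2.68% of the 7754. Gm26735, the gene opposite Sox4, had 0 to 5 counts in each WT-titled library and 9 to 41 in each of preparations 5 and 8. The part of the overlap in the difference of Sox4 was not tested. Sox11 did not pass in G0 (-0.03 ± 0.13, adjusted p = 0.89), G1-S, S-G2-M or unsorted cells. In G1 it was lower at E13.5 (-0.58 ± 0.13, adjusted p = 0.00203), a call lost without preparation 5 (-0.56, adjusted p = 0.083) or 8 (-0.58, adjusted p = 0.0841).

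Sox14 showed the largest log2 differences between the days among the 8 genes, in each of the 3 fractions where it passed. In G0 the change was 3.35 ± 0.37 (adjusted p = 2.03e-06), from 2.18 and 1.18 CPM to 17.3 and 17.3 CPM. In G1-S it was 2.71 ± 0.48 (adjusted p = 0.000302), where the E10.5 libraries held 3 and 11 counts, and in unsorted cells it was 2.26 ± 0.38 (adjusted p = 0.000114). In G0 the neuron marker sum was 2450.5 and 2517.3 CPM in preparations 5 and 8 and 5603.7 and 5130.1 CPM in WT1 and WT2. Of its 8 genes 5 were lower at E13.5 and 2 higher, Syt1 (1.0 ± 0.27) and Mapt (0.97 ± 0.2). Of all genes tested there, 22.5% were lower and 20.4% higher. The part of neuron numbers or types in the change of Sox14 was not tested.

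Sox1 and Sox21 rose in the same sorted fractions. In G0 the changes were 1.02 ± 0.16 for Sox1 (adjusted p = 5.73e-05) and 1.03 ± 0.17 for Sox21 (adjusted p = 0.000129). In S-G2-M they were 0.84 ± 0.15 (adjusted p = 0.000294) and 1.32 ± 0.16 (adjusted p = 8.54e-06). Those in G1-S, 0.83 ± 0.16 for Sox1 (adjusted p = 0.000462) and 0.9 ± 0.17 for Sox21 (adjusted p = 0.000463), missed the threshold without preparation 8, at 0.69 (adjusted p = 0.0525) and 0.7 (adjusted p = 0.077). In G1 neither passed. Opposite-strand exons cover 18.8% of Sox21, and the 879 genes above the same limit on log2 CPM with a cover of 10% to 30% had a median change of 0.28 in G0 and 0.18 in S-G2-M. The share of that overlap in the change of Sox21 was not tested.

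Between the days Sox2 changed in different directions by fraction, while the calls of Sox3 were all lower. Sox2 was higher at E13.5 in G0 (0.78 ± 0.16, adjusted p = 0.000813) and lower in G1 (-1.17 ± 0.16, adjusted p = 1.55e-05) and in unsorted cells (-0.83 ± 0.15, adjusted p = 0.000288), where it stood at 79.7 and 101.0 CPM at E10.5, at 128.3 CPM at E11.5 and at 50.5 and 51.3 CPM at E13.5. In S-G2-M its change of -0.18 ± 0.15 did not pass (adjusted p = 0.378). Sox3 was lower in G1 (-1.13 ± 0.2, adjusted p = 0.000184) and, in unsorted cells, by -0.61 ± 0.19 (adjusted p = 0.0117), a call lost without preparation 5 (-0.53, adjusted p = 0.156) or 8 (-0.81, adjusted p = 0.0584). The neural progenitor marker sum was also lower at E13.5 in G1, at 807.4 and 811.5 CPM beside 1672.2 and 1440.0 CPM at E10.5, and in unsorted cells, at 844.1 and 869.8 beside 1279.8 and 1279.6 CPM. The summed level of 8 mesenchyme markers in G1 was 7752.8 and 8098.6 CPM beside 2283.6 and 3588.4 CPM. Their part in the changes of Sox2 and Sox3 was not tested. Sox12 was higher at E13.5 in G0 by 1.12 ± 0.14 (adjusted p = 7.54e-06), and its smaller rises in the other fractions, 0.37 to 0.56, each missed the threshold without preparation 8, where Sox12 was at 0.28 to 0.54 (adjusted p from 0.0697 to 0.383).

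Over the 8 genes, 6 were higher and none lower at E13.5 in G0, where 42.9% of all genes tested passed. In G1, 2 were higher and 3 lower (47.1% of all genes passed), and in G1-S, 5 were higher (39.7%). In S-G2-M, 4 were higher (43.0%), and in unsorted cells 4 were higher and 2 lower (53.8%). Of these counts, that in G0 lay furthest above its background and that in S-G2-M nearest to it. With a single E13.5 preparation fewer genes passed, members and all genes alike. Without preparation 5 or without 8, 3 members passed in G1 (21.8% and 24.3% of all genes) and 3 in unsorted cells (29.7% and 28.6%), and without preparation 8, 2 passed in G1-S (18% of all genes). Sox21 in unsorted cells (0.46 ± 0.16, adjusted p = 0.0241) was at 0.29 (adjusted p = 0.408) without preparation 8 and at 0.37 (adjusted p = 0.0773) with RLE factors.

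**Figure D4:**
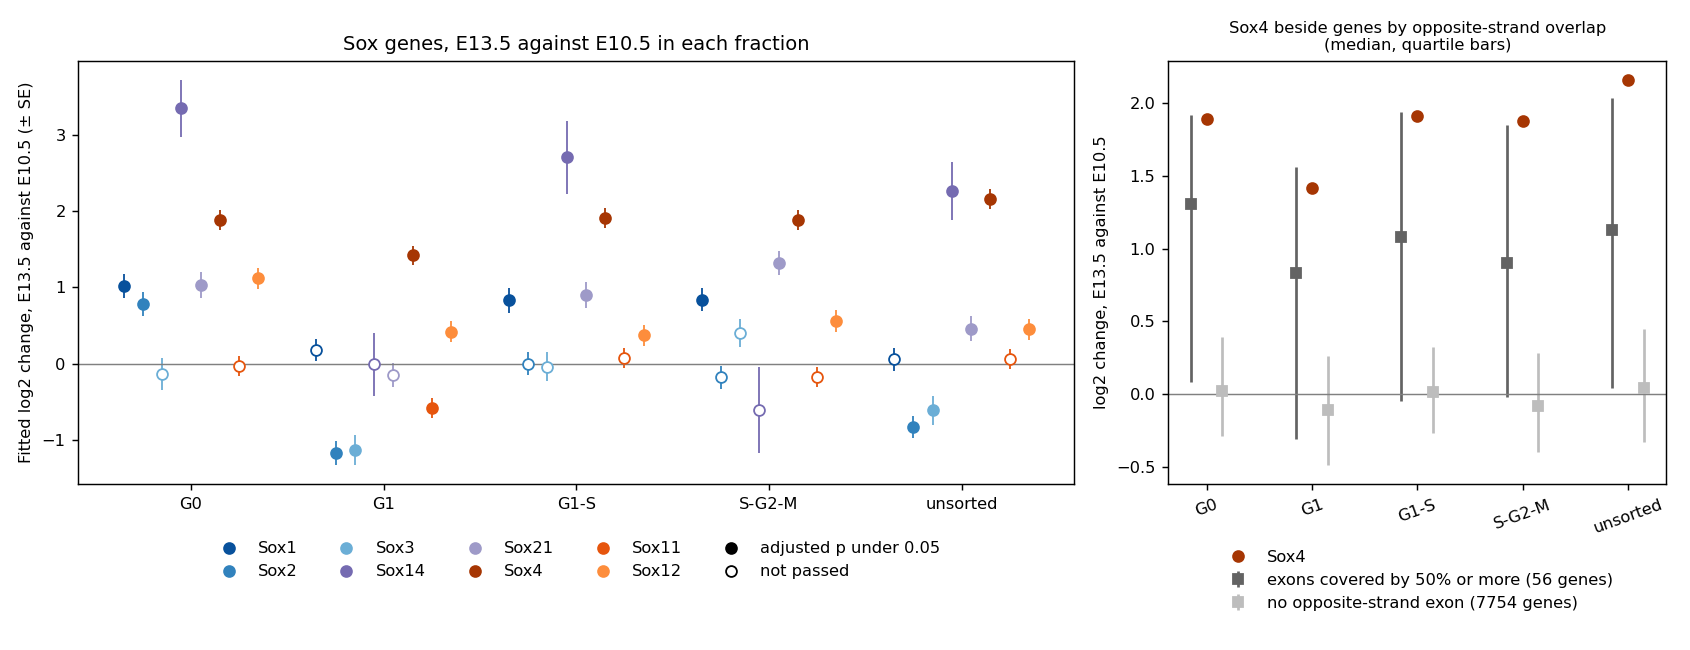
Left, fitted log2 change of each Sox gene between E13.5 and E10.5 in each fraction, with standard error bars and filled points for an adjusted p under 0.05; right, Sox4 beside the median and quartiles of genes grouped by opposite-strand exon cover. Sox4 lies above 1.4 in all 5 fractions, and the 56 genes covered by 50% or more, Sox4 among them, have higher medians than the 7754 with no cover.

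Whether the differences between fractions themselves changed from E10.5 to E13.5 was tested with an interaction term. For G1 against G0, 4 of the 8 were lower at E13.5 and none higher, where 3.51% of all genes tested passed, and the members' median was -0.93 beside -0.1 for all genes. Sox2 had the smallest adjusted p, with an interaction of -1.95 ± 0.22 (adjusted p = 9.44e-05): log2 ratios of G1 to G0 CPM were 2.28 in WT1 and 1.94 in WT2 beside 0.07 in preparation 5 and 0.24 in 8, and 1.15 in the E11.5 preparation. The other 3 were Sox14 (-3.36 ± 0.55, adjusted p = 0.00225), Sox21 (-1.18 ± 0.24, adjusted p = 0.00951) and Sox1 (-0.85 ± 0.22, adjusted p = 0.0406), of which Sox1 missed the threshold without WT1 (-0.55, adjusted p = 0.097). With preparation as a block 7 of the 8 passed, Sox3 (-1.0, adjusted p = 0.0356), Sox11 (-0.55, adjusted p = 0.0314) and Sox12 (-0.69, adjusted p = 0.029) being added, where 7.73% of all genes passed, and 7 passed without WT1, where 16.2% did. None passed without preparation 5 or without 8, which left a single E13.5 preparation, and of all genes 0.0329% and 0.12% then passed. For Sox2 the interaction was then -1.85 (adjusted p = 0.0805) and -2.01 (adjusted p = 0.0568), beside a change of like size in the full fit. In the same order the values were -3.19 and -3.54 for Sox14 (adjusted p of 0.355 and 0.255), -1.15 and -1.18 for Sox21 (0.464 and 0.433), and -1.02 and -0.65 for Sox1 (0.462 and 0.765).

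For S-G2-M against G0 the interaction passed for 2 of the 8, where 8.66% of all genes did. Sox14 had a value of -3.96 ± 0.64 (adjusted p = 0.000703), with log2 ratios of S-G2-M to G0 CPM of -2.17 in WT1, -1.35 in WT2, -1.38 in WT3, -5.75 in 5 and -5.89 in 8. The S-G2-M libraries of preparations 5 and 8 held 6 and 4 counts of Sox14, so that their ratios rest on few counts. Sox2 had -0.95 ± 0.22 (adjusted p = 0.0107). Neither passed without preparation 5 (Sox14 -4.02, adjusted p = 0.114, and Sox2 -0.8, adjusted p = 0.356) or without 8 (Sox14 -3.94, adjusted p = 0.0922, and Sox2 -1.1, adjusted p = 0.19), where 0.951% and 1.04% of all genes passed. Sox4 and Sox11 did not pass, at -0.01 ± 0.17 and -0.14 ± 0.19 (adjusted p of 1.0 and 0.759).

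Genes known to work with or downstream of these factors were read in 2 lists. Of 17 Sox partner and progenitor genes, 8 were higher and 3 lower in S-G2-M than in G0, where 54.2% of all genes passed, with a median change of 0.71 beside -0.01 for all genes. Of the 17, 7 are also among the progenitor markers above. Hes5 (3.32 ± 0.32) and Hes1 (2.03 ± 0.25), targets of Notch signalling, had the largest rises, while Pou3f1 (-2.57 ± 0.34) and Pou3f4 (-1.29 ± 0.17), POU factors of the class that partners SoxB1 proteins, had the largest falls. From G1-S to S-G2-M, where 17.4% of all genes passed, 5 rose and none fell, led by Pou3f3 (1.2 ± 0.13) and Pax6 (1.19 ± 0.24). Of 18 neuronal genes of the stage at which SoxC factors act, 17 were lower in S-G2-M than in G0, where 54.2% of all genes passed in either direction, with a median of -3.5. Stmn2, a tubulin-binding protein of growing axons, changed by -6.09 ± 0.45 and the transcription factor Nhlh2 by -5.28 ± 0.42. The remaining gene, Tead2, a known SoxC target, was higher in S-G2-M (1.46 ± 0.13). The drop of Sox11 over the same comparison (-1.16) was smaller than this median. All 8 neuron markers were lower as well, and 3 of them are on the neuronal list. Between days the median of the neuronal genes in S-G2-M was 0.96 beside -0.07 for all genes, of which 43.0% passed and 18.9% were higher at E13.5. Of the 18, 11 were higher, led by Myt1 (1.83 ± 0.32) and Insm1 (1.78 ± 0.28), and 2 lower, Neurod4 (-2.19 ± 0.22) and Tead2 (-0.52 ± 0.11). The other fractions differed from this. In G0 the median was -0.69, with 1 higher and 9 lower (42.9% of all genes passed). In G1 it was -1.44, with 1 higher and 15 lower (47.1% passed). In G1-S 4 were higher and 4 lower (39.7% passed), and in unsorted cells 3 were higher and 5 lower (53.8% passed).

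A list of 11 other Sox genes was read beside the 8. In S-G2-M against G0, where 54.2% of all genes passed, 5 were higher, led by Sox8 (2.11 ± 0.18) and Sox9 (1.92 ± 0.17), and 3 lower, led by Sox7 (-1.94 ± 0.57) and Sox17 (-1.54 ± 0.54), with a median of 0.0. Sox9 marks progenitors of cartilage and glia, and Sox7 and Sox17 mark endothelium and its precursors. From G1-S to S-G2-M, 2 of them rose and 5 fell, where 17.4% of all genes passed.

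Noncoding genes at the same loci have counts of their own. Sox1 and Sox2 share no exon bases with the same-strand transcripts that span them. Unspliced reads of those transcripts across a Sox exon would still count as Sox1 or Sox2. Sox2ot, in whose intron Sox2 lies, was at 10.4 to 19.1 CPM in G0 and 19.8 to 35.7 CPM in S-G2-M, and Sox2ot was higher than in G0 both in G1 (0.69 ± 0.24, adjusted p = 0.0268) and in S-G2-M (0.91 ± 0.24, adjusted p = 0.00252). In unsorted cells it was lower at E13.5 (-1.19 ± 0.3, adjusted p = 0.00356). The table names the transcript that spans Sox1 Gm5607, and this gene was at 3.62 to 16.2 CPM in G0 and 4.21 to 37.5 CPM in S-G2-M, with the E13.5 libraries above all others in each fraction. The part of Gm5607 in the change of Sox1 between days was not tested. Gm4675, opposite Sox21, had 10 to 77 counts in a library and was higher in S-G2-M than in G0 (1.15 ± 0.27, adjusted p = 0.000935).

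The gene most like each member across the 20 sorted libraries was sought by Pearson's r of log2 CPM, centred within each preparation, among 10377 genes. These correlations rest on 4 fractions of 5 preparations that share cells and libraries, and they are given as a description. Sox4 and Sox11 correlated with each other at r = 0.96. The nearest genes outside the group were Sbk1, Amer2 and Acsl6 for Sox4 (r = 0.987, 0.975 and 0.973) and Cxxc4, Zfp316 and Morn4 for Sox11 (r = 0.986, 0.985 and 0.982). Sox2 was nearest to Sox3 among the members (r = 0.94), and outside them to Dhx32 (0.965), Hdgf (0.961) and H2afy (0.956). For Sox3 the nearest were Pak4 (0.964), Proser3 (0.958) and Cntrl (0.957). Sox1 and Sox21 correlated at r = 0.94 although they belong to different groups, and both had Rpap1 among their 3 nearest genes (0.951 and 0.934). Sox21 was nearest to Pax6 (0.936), a factor of neural progenitors, and Sox1 to Polrmt (0.962). Sox14 was nearest to Hoxb9 (0.973) and Slc6a6 (0.952), and Sox12 to Dlg3 (0.932). Sox2 and Sox11 ran opposite, at r = -0.63, and the highest r of Sox12 with another member was 0.55, with Sox11.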

How the data were processed

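RNA was rRNA-depleted before library construction, per the labels' protocols, and the submitters' processing notes name STAR 2.5.3, HTSeq 0.8.0 and mm10. Neither the annotation nor the strand setting of the counting is given in the sources used here. The deposited values are raw read counts per gene and sequencing lane, and lanes were summed to 25 libraries after a check that they differed little beyond counting noise (dispersion 1.09 to 1.227 between lanes of a library, 5.9 to 117.5 between preparations). Of 52550 gene IDs, 52403 matched GENCODE M21. Counts were fitted in edgeR 4.0.16 (R 4.3.3) with TMM factors, a filter on low counts (minimum 10, minimum total 15), robust quasi-likelihood tests and Benjamini-Hochberg adjustment, passing under 0.05. Fractions were compared with embryonic day as covariate over 25 libraries, and days and day differences with one mean per fraction and day. DESeq2 1.42.0 was an alternative. Library totals give counting errors below the spread of the 5 preparations of a fraction, days included, except for Sox14, Gm26735, Gm4675 and Sox3 in G0. There the counts were low enough for counting error to be a large part of that spread. Within a day, preparations could lie as close as counting error. Sox21 in G0 of preparations 5 and 8 had 308 and 292 counts and 15.2 CPM in each. Named genes were the 8 members, up to 2 genes each way per list and the 3 most correlated genes per member, with r over log2 CPM (0.5 added). The members, lists and tests were chosen with earlier results of these data known. Preparation numbers pair libraries across fractions, since libraries of 1 preparation deviated together (correlations 0.119 to 0.743 in WT1 and WT2 and 0.316 to 0.663 in 5 and 8). The fit was checked on simulated data.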

Additional observations from a re-analysis of the deposited data

Results flagged for a closer look

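The difference between fractions changed between E10.5 and E13.5, by the test of the interaction itself (edgeR's quasi-likelihood test, adjusted over all genes), in 6 cases. For S-G2-M against G0 these were Sox14, with a value of -3.96 (adjusted p = 0.000703), and Sox2, with -0.95 (adjusted p = 0.0107). For G1 against G0 they were Sox2, with -1.95 (adjusted p = 9.44e-05), Sox14, with -3.36 (adjusted p = 0.00225), Sox21, with -1.18 (adjusted p = 0.00951), and Sox1, with -0.85 (adjusted p = 0.0406). Each passed only with both E13.5 preparations in the fit. No library stood apart from its group of 5 in any of the 40 combinations of gene and fraction by Dixon's criterion (critical value 0.71). Each group of 5 holds both title series. Where these sat at separate levels, as for Sox4, the criterion could hardly flag a library within a series.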

How the results depend on the processing

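Over 104 changes and 14 kinds of alternative, 1179 values were recomputed, of which 65 lost the call, 27 gained it and 1 reversed, Sox14 in G1-S against G1, at 0.75 within preparations 5 and 8. A further 55 had the opposite sign but passed in neither fit. The number of the 8 genes passing moved by over 1.5 times in the cases that follow, each given with the share of all genes that passed. In G1-S against G1 it was 5 within preparations 5 and 8 (40.6% of all genes). For E13.5 against E10.5, with only the libraries of a fraction fitted, it was 3 in G1-S (29.9%) and 3 in unsorted cells (43.7%). For the day difference of G1 against G0 it was 7 with preparation as replicate block (7.73%). Leaving out 1 preparation gave 3 to 5 in G1, 2 to 5 in G1-S and 3 to 6 in unsorted cells for the days, 0 to 2 for the day difference of S-G2-M against G0 and 0 to 7 for that of G1 against G0. With such an omission the lone E13.5 preparation is assumed to vary like the other groups. The replicate block changed no call between fractions. It is confounded with day and was not used for the days. Over all genes, the calls of the day difference of G1 against G0 went from 825 to 1563 without the filter, 1818 with the block, and 8 and 29 without preparations 5 and 8; those of the day difference of S-G2-M against G0 went from 2036 to 3380 with the block and to 231 and 253. Without preparation 5 or 8, the calls between days fell to 4361 to 7214, from 9325 to 12657. Those of G1-S against G1 went from 4444 to 2233 within the WT-titled preparations and 8476 within 5 and 8, and those of S-G2-M against G1-S from 4087 to 2430 without preparation 5. Of the 40 mean levels, the level of Sox11 in unsorted cells moved by more than 1 SD with plain library totals, to 1033.8 from 1141.1 CPM. Depth limits Sox14 in the WT-titled libraries and in S-G2-M of preparations 5 and 8, with 6 and 4 counts.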
